A study of Xenopus laevis with 18 samples.

Results

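Transcripts of 4 Xenopus laevis genes, exd2, polr2a, map4 and smtn, were followed across the endoplasmic reticulum (ER), pellet and cytosol of mature eggs and stage VI oocytes. They were chosen by name: every row of the deposited concentration table whose name, without its homeolog suffix, was one of these 4. The rule found 7 transcripts of 51026, namely exd2.L, exd2.S, polr2a.L, map4.L, map4.S, smtn.L and smtn.S. All 7 passed the filter on low counts, which left 25938 transcripts. The genes had been picked because they moved from the ER towards the cytosol between the oocyte and the egg. The authors deposited a z-score of this shift for 17810 transcripts. When these were ranked by it, exd2.L stood at rank 3, polr2a.L at 5, map4.S at 9, smtn.S at 10 and exd2.S at 16. The rows map4.L at rank 62 and smtn.L at rank 143 came in through their gene names. All ER and cytosol values below are therefore descriptions, given without a test, and the tests concern the pellet, the balance between homeologs and genes outside the rule.

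The ER is the membrane network on which messenger RNAs for secreted and membrane proteins are translated, and in frog oocytes it is also a site with which some localised maternal mRNAs are associated. When progesterone triggers oocyte maturation, the nucleus breaks down, the cell passes through meiosis and protein synthesis is reprogrammed while the cell relies on stored maternal mRNAs. The 4 genes have different roles. In human cells exd2 encodes a 3′ to 5′ exonuclease with a membrane anchor that has been linked to mitochondria and to DNA end resection. The gene polr2a encodes the largest, catalytic subunit of RNA polymerase II, whose C-terminal tail is phosphorylated during transcription. The gene map4 encodes a widely expressed protein that binds along microtubules and stabilises them, and smtn encodes smoothelin, a calponin-homology protein that associates with actin filaments and is best known from mammalian smooth muscle. Xenopus laevis is an allotetraploid frog, and the suffixes .L and .S name the copies of a gene (homeologs) on its long and short chromosome sets.

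The mature eggs came from defolliculated stage VI oocytes matured in culture medium with 2 µM progesterone, and their labels give the stage as germinal vesicle breakdown; the oocytes were kept in the same medium without the hormone, and both at 18 °C. Each library held the RNA of 1 fraction of 4 cells, and ER, pellet and cytosol of eggs and oocytes were represented by 3 libraries each, 18 in all. The submitters call the libraries of a group biological replicates but do not say whether they came from separate frogs, so p-values speak only for the spread among these libraries. Depth was 23151603 to 37863318 estimated counts per library, and the members held 361 (polr2a.L) to 15504 (smtn.L) estimated counts in a library. Oocyte markers summed to 811 to 1840 TPM (transcript abundance corrected for length and library size) in every group, with 15 of 16 transcripts at 1 TPM or more and bmp15.S at 0. Follicle cell markers (20 transcripts) summed to 71.8 to 98.2 TPM in egg ER and 63.2 to 69.5 TPM in oocyte ER, to 196 to 216 TPM in egg pellets and 166 to 180 TPM in oocyte pellets, and to 62.6 to 66.1 TPM in egg cytosol and 82.9 to 89.4 TPM in oocyte cytosol. Few of these 20 transcripts made up the sums: 4 in egg ER and 9 in oocyte pellets averaged 1 TPM or more, with the other groups between. In egg ER 5 were at 0 in all 3 libraries, among them col1a1.L, col1a1.S and cyp11a1.S. Blood and immune markers (14 transcripts) summed to 1.10 to 3.83 TPM, and the part of these other cells in the results was not tested. For such cells, fewer cells and less RNA per cell cannot be told apart in bulk libraries.

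Levels are given in attomolar (aM), the concentration that the authors derived from TPM with spike-in RNAs, and shares are a fraction's percentage of a transcript's summed concentration over ER, pellet and cytosol. Because TPM is per transcript length, concentrations can be compared between genes. ER, pellet and cytosol of each replicate number add up to 70657 aM at both stages, so a concentration is a part of a fixed total, and a gain or loss of RNA per cell as a whole cannot be read from it.

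In eggs, most of each mRNA was in the cytosol or in the cytosol and pellet, while in oocytes the ER held most of it. Over the 7 members, the mean ER share was 16.1 to 31.3% in eggs and 58.1 to 80.2% in oocytes. The mean cytosolic share was 48.5 to 75.1% in eggs and 8.45 to 30.8% in oocytes. Over 25911 transcripts the median ER share was 18.5% in eggs and 33.0% in oocytes, and its change was -14.0 percentage points, with quartiles of -18.2 and -10.3 points. The members changed by -32.6 points (exd2.S) to -54.4 points (smtn.S). In oocytes they lay among the most ER-bound transcripts, at percentiles 98.5 to 99.96 of ER share. In eggs they were spread over a wide range, with polr2a.L at percentile 97.0, exd2.S at 95.6, exd2.L at 90.1, smtn.S at 74.2, smtn.L at 52.1, map4.S at 29.5 and map4.L at 24.2.

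**Figure D1:**
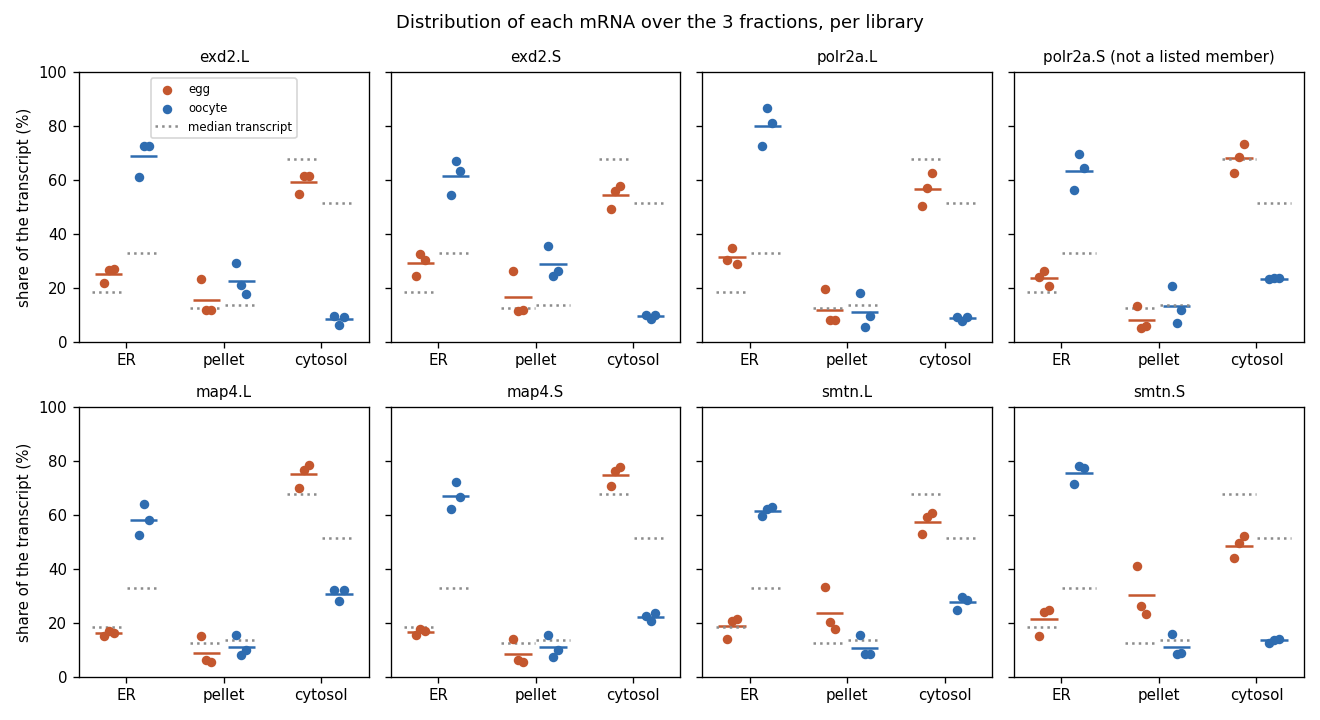
Share of each mRNA in ER, pellet and cytosol (percent of its concentration over the 3 fractions), with a point per library, a bar at the mean of 3, eggs in orange and oocytes in blue, and a dotted line at the median transcript. In every panel the oocyte ER points stand far above the egg ER points, and the egg cytosol points above those of the oocyte; smtn.L and smtn.S are the members whose mean pellet share is higher by over 10 points in eggs (23.7% and 30.3%) than in oocytes (10.8% and 10.9%).

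The 2 exd2 transcripts had the largest cytosolic ratios of egg over oocyte among the members. The ER held 1.35, 1.73 and 1.85 aM of exd2.L in eggs, against 3.44, 3.23 and 3.76 aM in oocytes. The cytosol held 3.42, 4.0 and 4.22 aM in eggs, against 0.542, 0.284 and 0.481 aM in oocytes. Every egg library was below every oocyte library in the ER and above every oocyte library in the cytosol, and egg cytosol and oocyte ER held similar amounts, with overlapping values. The ER share of exd2.L was 25.1% ± 2.88 in eggs and 68.9% ± 6.64 in oocytes, and its cytosolic share 59.3% ± 3.70 in eggs and 8.45% ± 1.80 in oocytes (SD, n = 3 each). The ratio of ER to cytosol was 0.396, 0.433 and 0.438 in eggs, against 6.34, 11.4 and 7.82 in oocytes.

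The exd2.S transcript was less abundant and followed the same course. Its ER held 0.676, 0.964 and 0.908 aM in eggs, against 1.38, 1.37 and 1.44 aM in oocytes. Its cytosol held 1.37, 1.65 and 1.73 aM in eggs, against 0.253, 0.173 and 0.229 aM in oocytes. The libraries of the stages again did not overlap in either fraction. On the count scale, relative to the typical transcript of a library, the ER level of exd2.S was nearly the same at both stages, at 119, 128 and 118 CPM (counts corrected for library size) in egg ER and 130, 125 and 119 CPM in oocyte ER. The cytosolic level of exd2.S was 66.5, 61.4 and 68.7 CPM in eggs and 16.8, 11.1 and 14 CPM in oocytes, so the cytosol carried the difference on the count scale. On the attomolar scale it carried 80.0% of the change in the log2 ratio of ER to cytosol.

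The catalytic subunit transcript polr2a.L was the most ER-bound member of the oocyte. The ER held 0.300, 0.348 and 0.288 aM in eggs, against 0.779, 0.862 and 0.971 aM in oocytes. The cytosol held 0.501, 0.572 and 0.623 aM in eggs, against 0.0981, 0.0770 and 0.110 aM in oocytes. No egg library overlapped an oocyte library in these fractions. The ER share of polr2a.L was 31.3% ± 3.06 in eggs and 80.2% ± 7.06 in oocytes, and its cytosolic share was 56.8% ± 6.22 in eggs and 8.70% ± 0.828 in oocytes (SD, n = 3 each). Oocyte ER was its highest level of all 6 groups, followed by egg cytosol and egg ER without overlap between neighbours, while both pellets and oocyte cytosol overlapped at the bottom.

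The short-chromosome copy of polr2a is listed under another name, LOC108703583, and so fell outside the rule. It was identified by its gene ID in RefSeq's Xenopus laevis v10.1 annotation and is called polr2a.S here. Its ER held 0.450, 0.503 and 0.397 aM in eggs, against 0.813, 0.930 and 1.05 aM in oocytes. Its cytosol held 1.18, 1.32 and 1.41 aM in eggs, against 0.336, 0.316 and 0.383 aM in oocytes. The copy shifted in the same direction as polr2a.L, with an ER share of 23.6% ± 2.77 in eggs and 63.4% ± 6.73 in oocytes (SD, n = 3 each). As it did not enter by the rule, its shift could be tested: the ER to cytosol difference, egg minus oocyte, was -1.67 ± 0.20 (log2 ± SE, edgeR's quasi-likelihood test with Benjamini-Hochberg adjustment, adjusted p = 1.18e-06). In the same model 14.7% of all transcripts were called lower, 12.4% higher and 27.2% in either direction. Reads from near-identical parts of the homeologs may be divided between them by the estimation, so this test is not fully separate from polr2a.L.

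The map4 transcripts ended with the smallest ER shares in eggs. The ER held 0.156, 0.197 and 0.198 aM of map4.L in eggs, against 0.645, 0.688 and 0.635 aM in oocytes. The cytosol held 0.734, 0.891 and 0.954 aM of it in eggs, against 0.392, 0.304 and 0.354 aM in oocytes. In both fractions the stages were apart without overlap, with the eggs lower in the ER and higher in the cytosol. The egg pellets held 0.157, 0.0709 and 0.0638 aM of map4.L, level with the egg ER for replicate number 1 and below it for numbers 2 and 3. The ER share of map4.L was 16.1% ± 1.08 in eggs and 58.1% ± 5.68 in oocytes (SD, n = 3 each). This egg share lay below the median transcript's.

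The copy map4.S was more ER-bound in oocytes than map4.L and close to it in eggs. Its ER held 0.193, 0.245 and 0.241 aM in eggs, against 0.984, 1.05 and 0.910 aM in oocytes. Its cytosol held 0.899, 1.05 and 1.11 aM in eggs, against 0.354, 0.302 and 0.325 aM in oocytes. Every library of one stage again lay apart from those of the other. The ER to cytosol ratio of map4.S was 0.222 ± 0.010 in eggs and 3.02 ± 0.407 in oocytes (SD, n = 3 each).

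The smtn transcripts had a far lower ER level in eggs and, unlike the others, a higher mean level in the egg pellet. In attomolar values their egg and oocyte pellet libraries overlapped. The ER held 0.793, 1.23 and 1.33 aM of smtn.L in eggs, against 4.81, 4.77 and 4.80 aM in oocytes. The cytosol held 3.01, 3.51 and 3.75 aM of smtn.L in eggs, against 2.00, 2.27 and 2.17 aM in oocytes. The oocyte ER libraries were nearly identical, far above every egg ER library, and the cytosolic ratio of egg over oocyte was the nearest to 1 among the 7 members. For smtn.S, the ER held 0.499, 0.798 and 0.854 aM in eggs, against 3.76, 3.92 and 3.94 aM in oocytes. The cytosol held 1.45, 1.64 and 1.81 aM of smtn.S in eggs, against 0.663, 0.689 and 0.711 aM in oocytes. In the ER and cytosol the stages did not overlap for smtn.S either. Its ER share, 21.2% ± 5.34 in eggs and 75.6% ± 3.54 in oocytes (SD, n = 3 each), showed the largest change among the members.

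**Figure D2:**
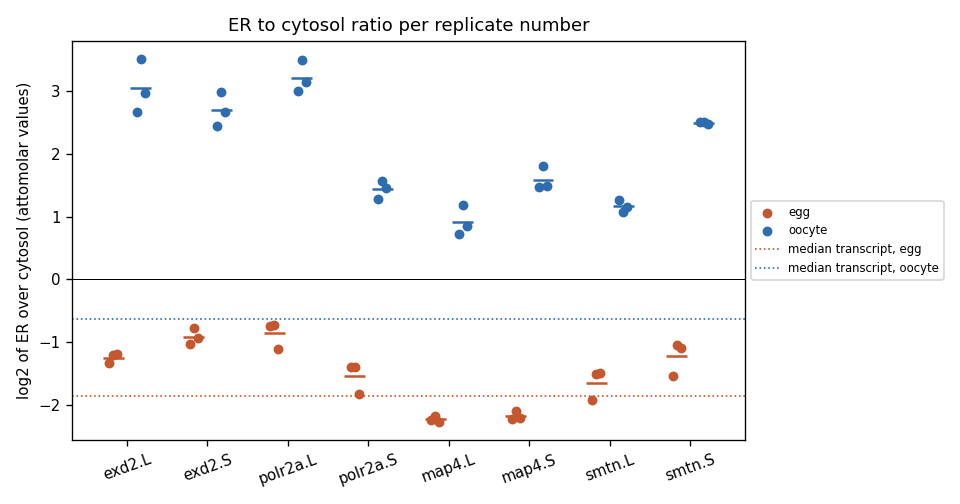
Log2 of the ER over the cytosol concentration for each replicate number (points) with the mean (bar), eggs in orange and oocytes in blue, with dotted lines at the median transcript of each stage. All egg points of the 8 transcripts lie below 0 and all oocyte points above 0; mean ratios ranged over the members from 0.214 to 0.556 in eggs and from 1.90 to 9.32 in oocytes, where the median transcript had 0.276 in eggs and 0.646 in oocytes. This side of 0 holds for concentrations: on the count scale, relative to the typical transcript, egg ER was above egg cytosol for 5 of 7 members, by 0.17 (smtn.L) to 0.96 (polr2a.L) on the log2 scale. That scale centres the typical transcript near 0, with a median of -0.021 over all transcripts.

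In attomolar values the libraries of eggs and oocytes were free of overlap for 7 of 7 members in the ER, where this held for 70.1% of all transcripts, and for 7 of 7 in the cytosol, where it held for 60.0%. Non-overlap was thus common in these fractions, and the size of the members' difference is what the rule selected. In the count model, which compares each transcript with the typical one, the change of the ER to cytosol difference (egg minus oocyte, log2 ± SE) was -2.93 ± 0.18 for exd2.L, -2.27 ± 0.13 for exd2.S, -2.68 ± 0.20 for polr2a.L, -1.86 ± 0.13 for map4.L, -2.47 ± 0.13 for map4.S, -1.58 ± 0.13 for smtn.L and -2.42 ± 0.13 for smtn.S. These values stood at ranks 49 (exd2.L) to 355 (smtn.L) from the lowest of 25938, and the median over all transcripts was -0.0034. On the attomolar scale the changes of the log2 ratio were larger, at -2.80 (smtn.L) to -4.29 (exd2.L). Scaling by spike-in counts moved the median of all transcripts to -0.97, so part of the attomolar change is shared by the typical transcript.

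The shift was made up differently in the 4 genes. Egg over oocyte, the ER concentration was 0.473-fold for exd2.L, 0.609-fold for exd2.S and 0.358-fold for polr2a.L, where the median of all transcripts was 0.636-fold. It was 0.280-fold for map4.L, 0.230-fold for map4.S, 0.233-fold for smtn.L and 0.185-fold for smtn.S. The cytosolic concentration, egg over oocyte, was 8.91-fold for exd2.L, 7.25-fold for exd2.S and 5.95-fold for polr2a.L, where the median of all transcripts was 1.47-fold. It was 2.46-fold for map4.L, 3.12-fold for map4.S, 1.60-fold for smtn.L and 2.38-fold for smtn.S. Of the change in the log2 ratio, the cytosol accounted for 74.5% (exd2.L), 80.0% (exd2.S) and 63.5% (polr2a.L), for 41.4% (map4.L) and 43.7% (map4.S), and for 24.3% (smtn.L) and 33.9% (smtn.S). On the log2 scale the exd2 and polr2a mRNAs thus differed mostly by a higher cytosolic level, and the smtn mRNAs mostly by a lower ER level. In percentage points of share, polr2a.L changed about equally, by -48.9 in the ER and 48.1 in the cytosol. For polr2a.S the cytosolic part was 64.7%, close to that of polr2a.L.

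**Figure D3:**
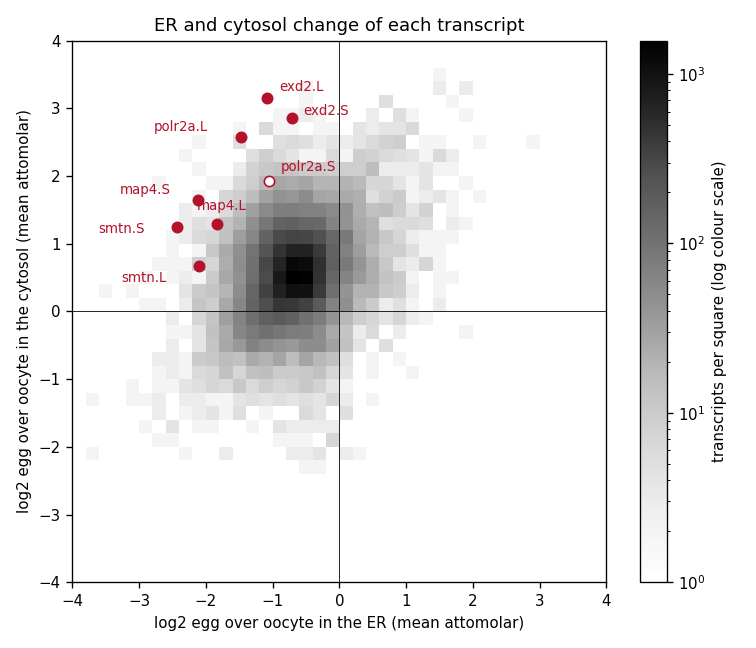
Log2 of the egg over the oocyte mean concentration in the ER (horizontal axis) and in the cytosol (vertical axis), with the members as filled and polr2a.S as an open circle over the number of transcripts per square in grey; 25713 transcripts lie in the drawn range and 56 outside it. The members lie towards the upper left, the direction for which the genes were picked, with other transcripts beyond them. They run from exd2.L at the top (-1.08 in the ER, 3.15 in the cytosol) to smtn.L lower down (-2.10 in the ER, 0.67 in the cytosol).

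Summed over the 3 fractions, the members did not share a direction. The total, egg over oocyte, was 1.29-fold for exd2.L, 1.28-fold for exd2.S, 1.01-fold for map4.L, 0.923-fold for map4.S, 0.916-fold for polr2a.L, 0.763-fold for smtn.L and 0.658-fold for smtn.S, where the median of all transcripts was 1.12-fold. For exd2.L the totals were 6.22, 6.50 and 6.86 aM in eggs, against 5.61, 4.45 and 5.17 aM in oocytes. For smtn.S they were 3.31, 3.31 and 3.48 aM in eggs, against 5.25, 5.02 and 5.09 aM in oocytes. Eggs were thus higher for exd2.L and lower for smtn.S, the members at the ends of this range, and the totals were not tested.

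The pellet took no part in the choice of the members and was tested. Of the 7 members, smtn.S and smtn.L rose in egg pellets relative to oocyte pellets, exd2.S, map4.S and map4.L fell, and exd2.L and polr2a.L did not pass. That is 5 of 7, in a comparison in which 43.6% of all transcripts were called (22.3% higher and 21.4% lower), so differences of this kind were frequent. The 7 members had a median of -0.30 (log2), and all transcripts had a median of -0.0083. Both smtn copies moved one way and both map4 copies the other.

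The smtn.S level in the pellet was 223, 278 and 259 CPM in eggs, against 157, 161 and 134 CPM in oocytes, a log2 change of 0.75 ± 0.090 (SE; edgeR's quasi-likelihood test, Benjamini-Hochberg adjusted p = 5.14e-07). The smtn.L level was 318, 387 and 351 CPM in eggs, against 243, 246 and 200 CPM in oocytes, a log2 change of 0.62 ± 0.091 (adjusted p = 8.63e-06 in the same edgeR test). For both, every egg pellet lay above every oocyte pellet. The exd2.S level was 105, 95.7 and 102 CPM in eggs, against 143, 160 and 150 CPM in oocytes, a log2 change of -0.58 ± 0.085 (adjusted p = 8.83e-06, edgeR). The map4.S level was 62.1, 57.0 and 56.2 CPM in eggs, against 90.5, 86.9 and 80.5 CPM in oocytes, a log2 change of -0.56 ± 0.089 (adjusted p = 2.33e-05, edgeR). In these, too, the stages did not overlap, with the eggs lower. The map4.L level was 57.6, 51.3 and 50.5 CPM in eggs, against 72.3, 73.8 and 67.7 CPM in oocytes, a log2 change of -0.42 ± 0.091 (adjusted p = 0.000592, edgeR).

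The exd2.L level in the pellet was 134, 140 and 145 CPM in eggs, against 172, 191 and 153 CPM in oocytes, with a log2 difference of -0.30 ± 0.12 that missed the threshold (adjusted p = 0.0524, edgeR). It passed under 4 of 15 alternatives, among them the edgeR model with a replicate block (adjusted p = 0.0412) and that without oocyte pellet replicate 3 (adjusted p = 0.0297). The polr2a.L level was 57.5, 46.9 and 51.7 CPM in eggs, against 60.5, 40.7 and 59.0 CPM in oocytes, with a log2 difference of -0.036 ± 0.14 (adjusted p = 0.861, edgeR). Its stages overlapped. A p that misses the threshold does not show that the levels were equal. In CPM the stages were apart for 6 of 7 members and for 50.0% of all transcripts.

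These pellet results depend on the scale. In attomolar values the egg and oocyte pellets overlapped for all 7 members, with 0 of 7 apart where 6.20% of all transcripts were. The pellets numbered 1 were the highest of both stages, with 15013 aM in all against 8273 and 8767 aM for the other egg pellets, and 12437 aM against 6581 and 8249 aM for the other oocyte pellets. They also held the fewest spike-in counts, with 66158 against 118068 and 96346 in egg pellets, and 65316 against 95225 and 88829 in oocyte pellets, and the part of RNA amount or of the conversion in this was not tested. With spike-in scaling only smtn.S kept its call (adjusted p = 0.0208, edgeR), and with limma on attomolar values it had an adjusted p of 0.0739 with a pseudocount of 0.01 and of 0.105 with 0.1. Without the pellets numbered 1, an alternative chosen after seeing the data, the log2 change on the count scale was 0.89 for smtn.S, 0.75 for smtn.L, -0.62 for exd2.S, -0.54 for map4.S and -0.45 for map4.L, and all 5 calls held. The summed follicle cell markers were also higher in the egg pellets, as given above. Of these 20 transcripts, 8 averaged 1 TPM or more in egg pellets and 9 in oocyte pellets, and their part in the smtn result was not tested.

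**Figure D4:**
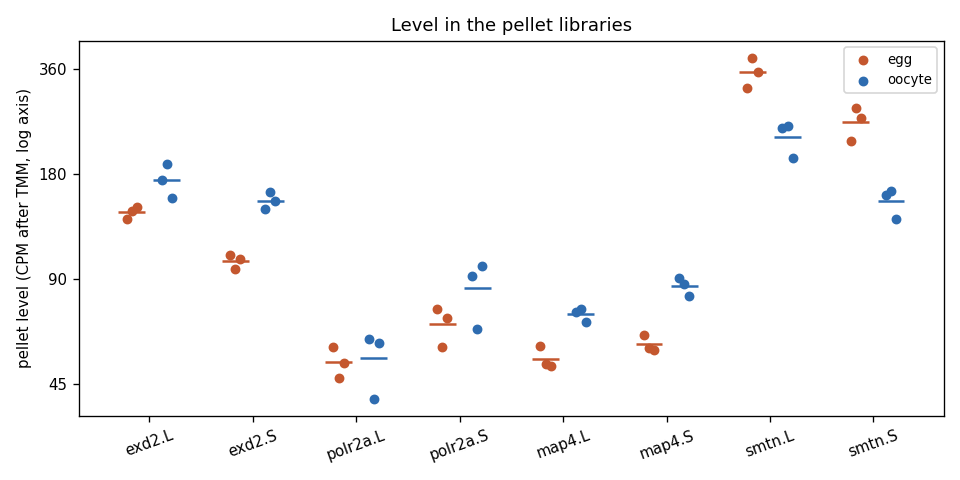
Level in the pellet libraries (CPM after TMM scaling, log axis), a point per library and a bar at the mean of 3, eggs in orange and oocytes in blue. The egg points of smtn.L and smtn.S lie above the oocyte points, those of exd2.L, exd2.S, map4.L and map4.S lie below, and those of polr2a.L and polr2a.S overlap.

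The homeologs of each gene shared the direction of the ER to cytosol shift, and their ER shares differed more in oocytes than in eggs. In oocytes the ER share of polr2a.L exceeded that of polr2a.S by 16.8 ± 0.36 percentage points, and that of exd2.L exceeded that of exd2.S by 7.21 ± 1.89 points (SD, n = 3). In oocytes the ER share of smtn.L was lower than that of smtn.S, with a difference of -14.0 ± 1.96 points, and that of map4.L lower than that of map4.S, with -8.79 ± 0.66 points. In eggs the same L minus S differences were 7.76 ± 1.26 points for polr2a, -4.0 ± 1.79 points for exd2, -2.51 ± 1.16 points for smtn and -0.56 ± 0.21 points for map4. The gap in ER share was therefore narrower in eggs for each gene, and for exd2 it changed sign. Over all transcripts, too, ER shares lay closer together in eggs, with quartiles of 16.2 and 21.3%, against 28.4 and 37.8% in oocytes. A narrower gap is thus not particular to these genes, and other homeolog pairs were not compared. Other measures of exd2 did not narrow. Its L minus S gap in cytosolic share was 4.96 ± 1.14 points in eggs and -1.08 ± 0.91 points in oocytes. The mean log2 ratio of ER to cytosol for exd2.L and exd2.S was -1.25 and -0.91 in eggs, against 3.05 and 2.69 in oocytes. Which copy ranked high in the selecting ratio is itself part of these differences, so no test is given.

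The balance of the copies can be put as the share of the L copy in the TPM of the pair. In the pellet the L share of exd2 was 65.3, 68.5 and 67.8% in eggs, against 64.2, 64.0 and 60.2% in oocytes. That of polr2a was 43.9, 45.1 and 42.6% in eggs, against 39.8, 38.6 and 37.6% in oocytes. That of map4 was 47.3, 46.6 and 46.5% in eggs, against 43.6, 45.1 and 44.9% in oocytes. The L share was higher in every egg pellet than in any oocyte pellet for these genes. For smtn it ran the other way, with 57.9, 57.4 and 56.7% in eggs, against 59.9, 59.6 and 59.1% in oocytes. How often other homeolog pairs were apart in this way was not counted. For single transcripts such separation was common, as pellet CPM did not overlap for 50.0% of them. Each of the 4 pellet comparisons had an exact two-sided permutation p of 0.1, the smallest that 3 against 3 libraries can give. After Benjamini-Hochberg adjustment over 12 comparisons, the 4 genes in each of 3 fractions, it was 0.1 as well, so none could reach 0.05. The ER and cytosol comparisons among the 12 use fractions that served the choice of the members, and nothing is read from their p-values.

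In the cytosol the L share of exd2 averaged 70.8% in eggs and 65.3% in oocytes, and that of polr2a 30.5% in eggs and 22.7% in oocytes. It averaged 45.7% in eggs and 51.5% in oocytes for map4, and 67.5% in eggs and 74.6% in oocytes for smtn. In the ER it averaged 65.6% in eggs and 70.6% in oocytes for exd2, 41.2% in eggs and 48.4% in oocytes for polr2a, 44.9% in eggs and 40.4% in oocytes for map4, and 60.7% in eggs and 55.1% in oocytes for smtn. For each gene the L share moved in opposite directions in ER and cytosol. These moves carry the difference between the copies in the ER to cytosol change, by which the members were picked. They are a description, and other homeolog pairs were not compared. The L copies of exd2 and smtn were the more abundant ones in every group, and polr2a.S was the more abundant polr2a copy throughout.

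Length, axis class and abundance were not used by the rule. The transcript models of all 7 members were longer than the median of 4024 nucleotides over the transcripts tested, only slightly so for exd2.L, at 4496 (exd2.L), 6579 (exd2.S), 12368 (polr2a.L), 15068 (map4.L), 14588 (map4.S), 8068 (smtn.L) and 7793 (smtn.S) nucleotides. The 2594 longest transcripts tested, of at least 9240 nucleotides, had a median change of the ER to cytosol difference of 0.014 on the log2 scale, where all had -0.0034, and the part of length in the members' shift was not tested. In the authors' deposited classes of position along the animal-vegetal axis, exd2.L and smtn.L were extremely animal, polr2a.L, map4.L, map4.S and smtn.S animal, and exd2.S other. The 10747 tested transcripts classed animal had a median change of -0.016 and the 286 classed extremely animal one of -0.30. The 134 classed vegetal had -0.35, the 26 classed extremely vegetal -0.40 and the 136 classed other -0.17. The members were picked for low values of this change, and the part of axis class in their shift was not tested. The members were also abundant, with polr2a.L at percentile 76.4 of mean log2 CPM and smtn.L at percentile 98.7.

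Related genes were counted in the change of the ER to cytosol difference, egg minus oocyte, in which 12.4% of all transcripts were called higher and 14.7% lower. The lists were chosen from general knowledge of the members' functions, with earlier results of these data known. Among the other RNA polymerase II subunits, 1 of 14 tested transcripts rose, 1 fell and the median was -0.038. The riser was polr2g.L, a subunit of the enzyme's stalk, at 0.43 ± 0.12 (adjusted p = 0.00785, edgeR), and polr2c.S, a core assembly subunit, fell by 0.50 with an SE of 0.18 (adjusted p = 0.0368, edgeR). The polr2c.S call held under 11 of 21 alternatives and was lost without 9 of the 12 ER and cytosol libraries taken singly, with an adjusted p of up to 0.127 (edgeR, without egg cytosol replicate 1). Of 3 catalytic subunit transcripts of polymerases I and III, 1 fell, polr1a.L, by 0.48 with an SE of 0.12 (adjusted p = 0.00470, edgeR), and the median was -0.072. In the polymerase II list, which held neither polr2a copy, the lowest value was -0.92, where polr2a.S had -1.67 and polr2a.L -2.68. Since polr2a.L was picked for a low value of this change, its distance from the list is a description and was not tested.

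Among kinases, phosphatases, elongation and assembly factors of polymerase II, 7 of 36 rose and 16 fell, with a median of -0.21. The copies of ctdp1, a phosphatase of the polymerase tail, had the smallest adjusted p of those that fell, with -0.86 ± 0.081 for ctdp1.S (adjusted p = 4.15e-08, edgeR) and -0.65 ± 0.081 for ctdp1.L (adjusted p = 2.09e-06, edgeR). The kinase cdk9.L, which phosphorylates the same tail, rose by 0.36 ± 0.065 (adjusted p = 0.000217, edgeR), and ccnt2.L, which encodes a cyclin partner of that kinase, by 0.51 ± 0.094 (adjusted p = 0.000273, edgeR).

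Among microtubule-associated proteins other than map4, 9 of 44 rose and 10 fell, with a median of 0.050. The end-binding protein transcript mapre1.S fell by 0.84 with an SE of 0.10 (adjusted p = 1.14e-06, edgeR), and map7d2.L, of a family that recruits kinesin, by 0.68 with an SE of 0.10 (adjusted p = 2.42e-05, edgeR). The linker transcript clip2.L rose by 0.68 ± 0.12 (adjusted p = 0.000135, edgeR), and mapre3.L, a paralog of mapre1, by 0.61 ± 0.11 (adjusted p = 0.000174, edgeR). In the list of smoothelin relatives and calponin-homology actin binders, 3 of 40 rose and 7 fell, with a median of 0.082. The actin cross-linker transcript tagln2.S came nearest to the members, at -1.72 ± 0.12 (adjusted p = 2.54e-10, edgeR), with an ER share of 21.5% in eggs and 57.6% in oocytes. The integrin-linked parvin parvb.S fell by 0.50 with an SE of 0.079 (adjusted p = 3.57e-05, edgeR). The dystrophin relative utrn.L rose by 0.92 ± 0.12 (adjusted p = 3.37e-06, edgeR) and mical3.L, an actin-oxidising enzyme, by 0.50 ± 0.087 (adjusted p = 0.000142, edgeR). The remaining riser, specc1.S, had no counts in any oocyte ER library and in most others, and no fold is given.

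Among DNA end resection factors and 3′ exonucleases, 5 of 24 rose and 8 fell, with a median of -0.00093. Of the other genes named after the exonuclease domain of exd2, exd1.L fell by 0.97 with an SE of 0.12 (adjusted p = 1.84e-06, edgeR) and exd3.L rose by 0.92 ± 0.15 (adjusted p = 4.61e-05, edgeR). The exonuclease transcript rexo4.L fell by 0.79 with an SE of 0.097 (adjusted p = 1.73e-06, edgeR), and exo1.S, which resects DNA ends, rose by 0.34 ± 0.082 (adjusted p = 0.00336, edgeR). The rises of all 9 named transcripts are relative to the typical transcript and turned negative with spike-in scaling. None of these negative values passed the threshold (adjusted p of 0.0926 for exo1.S to 0.893 for exd3.L, edgeR), and all lay above that setting's median of -0.97. Spike-in scaling called 128 transcripts higher and 14862 lower, as against 3226 higher and 3823 lower on the main scale. The falls of the 10 named transcripts kept their direction under every alternative. With spike-in scaling and with limma on attomolar values this says little, because the typical transcript moved down there too. Of the 161 transcripts tested in the lists, only tagln2.S lay in the range of the 7 members, all below -1.5. The members were picked for low values of this change, so this is a description.

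**Figure D5:**
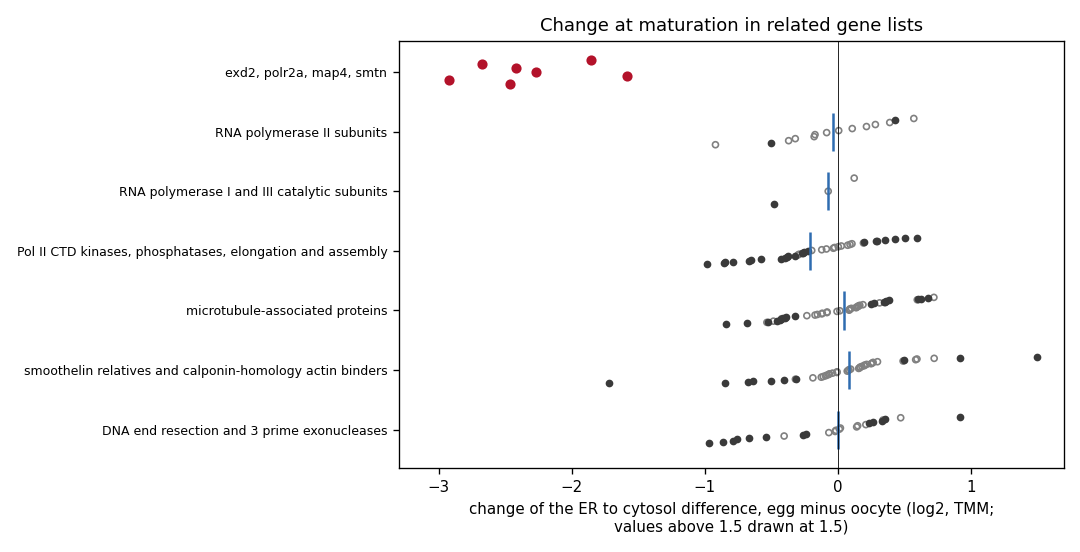
Change of the ER to cytosol difference, egg minus oocyte (log2, count scale), for the members in red and for the related gene lists below; filled points passed an adjusted p of 0.05, open points did not, and blue lines are list medians. The list medians lie between -0.21 (kinases, phosphatases, elongation and assembly factors of polymerase II) and 0.082 (smoothelin relatives), and the members between -1.58 and -2.93; the value drawn at 1.5 is specc1.S, which had no counts in most libraries.

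The transcripts most like the members were sought among 7365 with a gene symbol and a mean log2 CPM of at least 5, by the root mean square difference of their 6 mean shares from the members' mean profile. That profile had 22.6% in the ER, 16.5% in the pellet and 60.9% in the cytosol in eggs, and 67.6%, 15.2% and 17.3% in the same fractions of oocytes. The nearest 6 were acaca-like.S at 2.32 points, abhd17c.S at 2.40, sirt4.L at 2.86, arf5.S at 2.98, chst10.L at 3.07 and ptpn9.S at 3.14, where the median candidate was 21.5 points away. The members themselves lay 4.92 (exd2.L) to 9.94 points (map4.L) from their own mean. The nearest, acaca-like.S, had an ER share of 25.2% in eggs and 66.5% in oocytes and a cytosolic share of 61.2% in eggs and 20.6% in oocytes. Likeness here is over 6 group means and is a description.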

How the data were processed

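RNA of the ER, pellet and cytosol of eggs and oocytes was measured with stranded, ribosomal-RNA-depleted libraries to which 5 spike-in RNAs had been added, per the labels. The deposited library tables hold estimated counts and TPM for 51032 transcripts, made by the authors with kallisto 0.46.2 after demultiplexing with bcl2fastq 2.20, per the submitters' processing notes. Neither labels nor file headers name the transcript set or genome build, and no coordinates or sequences are printed. The authors converted TPM to an attomolar concentration signal by a spike-in regression, per the labels, and deposited it with the percent of each transcript's total in each fraction. Their deposited ratio (fold) columns divide group means of that signal; the deposited q-value of each ratio comes from an unnamed test and was not used. The authors also deposited a z-score, from which the ranks were made. Per the file headers it scores the log2 of the egg to oocyte ratio in the cytosol over that in the ER. A further 21 columns of the series table were not used.

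Estimated counts were rounded to whole numbers (65.5 to 71.9% per library already were), without spike-ins and 1 nameless transcript, and fitted with edgeR 4.0.16 (TMM, filterByExpr, quasi-likelihood test, 1 model of 18 libraries with 12 residual degrees of freedom). P-values were adjusted by Benjamini-Hochberg over 25938 transcripts, with a threshold of 0.05. The members and gene lists were chosen with earlier results of these data known. Transcripts named outside the members are the 2 with the smallest adjusted p per list and direction, and the 6 nearest in profile. The scripts were tested on simulated data. Each library was counted as a sample because the submitters call them biological replicates. Replicates of a group correlated at 0.993 to 0.997 and differed by more than sampling noise (chi-square over degrees of freedom 3.58 or more). Library preparation can give such a spread too, so it does not tell whether the libraries came from separate frogs. Alternatives were DESeq2 1.42.0, limma 3.58.1 on log2 attomolar values with pseudocounts of 0.01 and 0.1, spike-in and upper-quartile scaling, no filter, only the compared libraries, a replicate block and leaving out single libraries. Homeolog shares used the exact permutation test of scipy 1.17.1 on TPM. Same-numbered ER and cytosol libraries of oocytes deviated together (correlations of 0.252, 0.381 and 0.120). The oocyte ER against cytosol comparison was therefore also fitted with replicate blocks. A block by replicate number shared by both stages called 13092 transcripts and a block within each stage 13621, as against 12717. The block within each stage called 8059 in the ER to cytosol change, as against 7049. In egg ER against egg cytosol it called 11363, as against 10412.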

Additional observations from a re-analysis of the deposited data

Results flagged for a closer look

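In attomolar values, the ER to cytosol ratio of each member lay on opposite sides of equality at the 2 stages, below 1 in all 3 egg replicate numbers and above 1 in all 3 oocyte ones; the members were chosen for this, and the difference was not tested. The egg side depends on the scale: on the count scale egg ER was above egg cytosol for exd2.L (0.55), exd2.S (0.89), polr2a.L (0.96), smtn.L (0.17) and smtn.S (0.59, log2). The median of all transcripts was -0.021 on that scale. On the attomolar scale the change of the log2 ratio, egg minus oocyte, was -4.29 for exd2.L, -4.06 for polr2a.L, -3.76 for map4.S, -3.72 for smtn.S, -3.60 for exd2.S, -3.14 for map4.L and -2.80 for smtn.L.

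The 20 transcripts given here are polr2a.S and up to 2 per gene list and direction, those with the smallest adjusted p. For each, the difference between ER and cytosol itself differed between egg and oocyte in edgeR's test of that interaction. So it did for 27.2% of all 25938 transcripts. The copy polr2a.S had -1.67. Lower in eggs were tagln2.S (-1.72), exd1.L (-0.97), ctdp1.S (-0.86), mapre1.S (-0.84), rexo4.L (-0.79), map7d2.L (-0.68), ctdp1.L (-0.65), parvb.S (-0.50), polr2c.S (-0.50) and polr1a.L (-0.48). Higher in eggs, relative to the typical transcript, were utrn.L (0.92), exd3.L (0.92), clip2.L (0.68), mapre3.L (0.61), ccnt2.L (0.51), mical3.L (0.50), polr2g.L (0.43), cdk9.L (0.36) and exo1.S (0.34). No value among the members' groups was tested for standing apart, since each group held 3 libraries.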

How the results depend on the processing

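The scale mattered most. Spike-in scaling and limma on attomolar values (pseudocounts 0.01 and 0.1), in that order, moved the median of all transcripts in the ER to cytosol change to -0.97, -1.04 and -0.73. Calls in that change numbered 14990, 15587 and 18113, as against 7049. Egg ER against egg cytosol gave 24174, 24106 and 23775 calls, as against 10412, and the pellet comparison 2647, 1040 and 581, as against 11319. Egg ER against oocyte ER gave 16099 with spike-in scaling, as against 7402. With limma its totals stayed near that, at 6704 and 7997, but their direction did not. Of these calls 130 and 88 were higher and 6574 and 7909 lower, as against 3218 higher and 4184 lower on the main scale. Egg cytosol against oocyte cytosol gave 3265 with spike-in scaling and 5813 with limma at 0.01, as against 9598. With limma at 0.01 and 0.1, 5485 and 10015 were called higher and 328 and 413 lower. On the main scale 4780 were higher and 4818 lower. Shares built from TPM over spike-in TPM gave a median ER share change of the members of -38.4 points, as against -43.8.

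Values that turned negative, in the same order of settings, were polr2g.L (-0.54, -0.70, -0.66), cdk9.L (-0.61, -0.73, -0.71), ccnt2.L (-0.46, -0.65, -0.54), clip2.L (-0.28, -0.45, -0.19), mapre3.L (-0.36, -0.51, -0.47), utrn.L (-0.063, -0.19, -0.025), mical3.L (-0.47, -0.64, -0.54), exo1.S (-0.64, -0.81, -0.72) and exd3.L (-0.054, -0.20, and 0.025 with 0.1) in the ER to cytosol change. In egg ER against egg cytosol they were exd2.L (-1.23, -1.24, -1.20), exd2.S (-0.89, -0.90, -0.83), polr2a.L (-0.84, -0.84, -0.69), smtn.L (-1.61, -1.63, -1.56) and smtn.S (-1.19, -1.21, -1.11), which had 0.55, 0.89, 0.96, 0.17 and 0.59 on the count scale. The medians of all transcripts moved the same way, to -1.80, -1.63 and -1.22 in this comparison. In the ER to cytosol change, none of the negative values listed above passed the adjusted p threshold of 0.05.

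Leaving out single libraries gave 10205 to 10905 calls for the pellet, 6107 to 6896 for the ER to cytosol change, 6114 to 7008 for the ER, 8293 to 8745 for the cytosol, 11446 to 12071 for oocyte ER against cytosol and 9103 to 10235 for egg ER against cytosol. Leaving out a replicate number in all groups gave -43.6 to -46.0 points for the median ER share change. Of the 5 pairs of groups checked, same-numbered libraries correlated above 0.1 for every number in oocyte ER and cytosol alone; in egg ER and cytosol they had 0.235, 0.0230 and 0.447. The replicate block shared by both stages gave 11795 calls for the pellet, 7527 for the ER to cytosol change, 8034 for the ER, 10089 for the cytosol and 10861 for egg ER against cytosol. In the pellet it changed the calls of exd2.L and polr2a.S (adjusted p = 0.0310, edgeR, as against 0.0560) and of no other member; same-numbered pellets correlated at 0.10, 0.123 and 0.0335, each best with its own number.

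The exact permutation test of 3 against 3 libraries, the one test run on homeolog shares, cannot go below 0.1. The pellets numbered 1 stood apart in concentration, and how reads shared by homeologs were divided was not tested.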
